A study of Mus musculus with 8 samples.

Results

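The miR-125, miR-99/100 and miR-10 families were represented on the array by 7 mature miRNAs, mmu-miR-125a-5p, mmu-miR-125b-5p, mmu-miR-99a, mmu-miR-99b, mmu-miR-100, mmu-miR-10a and mmu-miR-10b, out of 1040 mouse miRNA probes. The 7 were selected on family name with earlier results of these same arrays known, so their signals and the differences between cell types are given here as a description. No p-value is printed for them, and the counts of members called further below are not read as evidence. On 2 or more of the 8 arrays, 6 of the 7 were well above background, and mmu-miR-10a was well above background on none.

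RNA came from thymic cells of 4-week-old female NOD wildtype mice, a strain prone to autoimmune diabetes, and no group carried a transgene, a deletion or a treatment. CD45+ cells (EpCAM-, CD45+, mostly developing T cells; 3 arrays), cortical thymic epithelial cells (cTECs, sorted as CD45-, EpCAM+, MHC II+, Ly51+; 2 arrays) and medullary thymic epithelial cells (mTECs, the same gate but Ly51-; 3 arrays) were compared. Stromal cells were isolated from pools of 10 to 12 thymi, so no animal was measured by itself. The sources used here do not state whether each array had its own pool, so the spread between arrays is not a spread between animals. The arrays were 1-color, with Cy3-labeled RNA and 5 spots for each probe, and all 8 lay on 1 slide, in 2 slide rows.

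miRNAs are short RNAs that lower the output of messenger RNAs, and the bases of the seed near the 5′ end do most of the target recognition. The miR-125 family is the vertebrate counterpart of lin-4, a miRNA that times development in worms, and its hairpins lie near let-7 and miR-99/100 hairpins in clusters that are conserved among animals. miR-125b is known from blood stem cells and from skin and other epithelia, miR-99 and miR-100 are known as regulators of the mTOR kinase, and the miR-10 hairpins lie inside the Hox clusters, whose genes set position along the body axis.

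The mature sequences show which probes can be told apart, since each probe was the complement of a whole mature miRNA. They are written 5′ to 3′ from RefSeq (GRCm38.p6), with the seed, bases 2 to 8, in capitals, and mmu-miR-351 is added because it was the other mouse probe with the miR-125 seed.

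mmu-miR-125a-5p: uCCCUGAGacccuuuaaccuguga
mmu-miR-125b-5p: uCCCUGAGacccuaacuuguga
mmu-miR-351: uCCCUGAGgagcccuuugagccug
mmu-miR-99a: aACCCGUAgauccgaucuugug
mmu-miR-99b: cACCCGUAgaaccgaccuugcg
mmu-miR-100: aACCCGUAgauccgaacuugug
mmu-miR-10a: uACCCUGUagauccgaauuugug
mmu-miR-10b: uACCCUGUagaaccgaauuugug

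The families form 3 seed groups. The seed CCCUGAG was shared by miR-125a-5p, miR-125b-5p and miR-351, the seed ACCCGUA was found on no mouse probe but those of miR-99a, miR-99b and miR-100, and the seed ACCCUGU on none but those of miR-10a and miR-10b. Counted from the 5′ end of the mature miRNA, miR-99a and miR-100 differ by the substitution U16A, and miR-10a and miR-10b by U12A. A probe for miR-99a may therefore also capture miR-100, and a probe for miR-10a may capture miR-10b, and the reverse, so values within these pairs are uncertain. By contrast miR-125a-5p and miR-125b-5p are 3 edits apart, and miR-99b is 4 edits from its nearest probes, those of miR-99a and miR-100.

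In all, 3 clusters of the same layout, a miR-99/100 hairpin, a let-7 hairpin and a miR-125 hairpin, hold most of the members. On chromosome 16, Mir99a (chr16:77598936-77599000), Mirlet7c-1 and Mir125b-2 (chr16:77646273-77646343) lie on the plus strand outside any annotated gene of the table used, with 656 bases from Mir99a to Mirlet7c-1 and 46522 bases from there to Mir125b-2. On chromosome 17, Mir99b (chr17:17830188-17830257), Mirlet7e and Mir125a (chr17:17830812-17830879) are packed within the protein-coding gene Spaca6, with 554 bases between Mir99b and Mir125a. On chromosome 9, Mir100 (chr9:41531425-41531504), Mirlet7a-2 and Mir125b-1 (chr9:41581926-41582002) lie within the long noncoding RNA gene Mir100hg, with 50421 bases between Mir100 and Mir125b-1. Mir10a (chr11:96317165-96317274) lies within Hoxb3 and Mir10b (chr2:74726070-74726137) within Hoxd3 and Hoxd4. Mature miR-125b-5p is the same 22 bases from Mir125b-1 and Mir125b-2, so its probe reads the sum of the chromosome 9 and chromosome 16 hairpins.

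Signals below are background-subtracted scanner signals scaled between arrays to the 75th percentile of the 65 miRNAs that were well above background on all 8 arrays, in arbitrary units. A probe is called well above background on an array when the scanner software marked a majority of its spots so. The dimmest signal that met this was 67.0 to 223 on the mTEC arrays and 80.2 to 144 on the CD45+ arrays, but 342 on cTEC replicate 1 and 621 on cTEC replicate 2, since the cTEC arrays were the dimmest of the 8 and were scaled up the most. A cTEC signal of that size can therefore be scaled background.

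mmu-miR-125b-5p, the counterpart of lin-4 with hairpins on chromosomes 9 and 16, was well above background in all 5 spots of every array. Its scaled signal was 374, 360 and 282 in the CD45+ samples, 8675 and 5048 in the cTEC samples and 6227, 5159 and 5776 in the mTEC samples. Every epithelial array stood above every CD45+ array, while the cTEC values lay on both sides of the mTEC values. The group means were 339 ± 49.3 (SD, n = 3) for CD45+ cells, 6862 ± 2565 (n = 2) for cTECs and 5721 ± 536 (n = 3) for mTECs.

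From the unfloored log2 means, miR-125b-5p was 17.0-fold higher in mTECs than in CD45+ cells (log2 difference 4.09), where the SD was 0.14 among mTEC and 0.22 among CD45+ arrays. It was 19.7-fold higher in cTECs than in CD45+ cells (log2 difference 4.30), with an SD of 0.55 between the cTEC arrays. The log2 difference of mTECs from cTECs was -0.21, smaller than that SD, and it had no settled sign, since it was -0.48 in slide row 1 and 0.11 in slide row 2. It was -0.60 without cTEC replicate 2, 0.18 without cTEC replicate 1, 0.82 when scaled to all mouse probes and 1.55 unscaled. Within the slide rows the differences from CD45+ cells were 4.09 and 4.27 for mTECs and 4.56 and 4.16 for cTECs.

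A reference point for these differences is the median over the 65 miRNAs measured on every array, which was not 0. It was 0.35 on the log2 scale for mTECs against CD45+ cells, 1.10 for cTECs against CD45+ cells and -0.47 for mTECs against cTECs. Relative to this median, miR-125b-5p was higher by 3.74 in mTECs and by 3.20 in cTECs. Scaling to all mouse probes moved that median by -0.84, -1.87 and 1.03 in the 3 comparisons, leaving the arrays unscaled moved it by -0.56, -2.33 and 1.77, and quantile normalization by -0.32, 0.00 and -0.46. Under each of these the fitted difference of miR-125b-5p from CD45+ cells stayed above 0, from 3.25 to 3.69 for mTECs and from 1.98 to 4.04 for cTECs.

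mmu-miR-99a, the neighbor of Mir125b-2 on chromosome 16, followed another pattern. Its scaled signal was 230, 225 and 194 in the CD45+ samples, against 1343, 1047 and 1056 in the mTEC samples, with all 5 spots well above background on each of these 6. The cTEC arrays gave 400 on replicate 1, where 4 of 5 spots were well above background, and 339 on replicate 2, where none was. All mTEC values thus lay above all others, and the cTEC values lay between the groups close to or below the limits of those arrays.

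miR-99a was 5.29-fold higher in mTECs than in CD45+ cells (log2 difference 2.40), with an SD of 0.20 among mTEC and 0.14 among CD45+ arrays. The difference was 2.56 in slide row 1 and 2.44 in slide row 2, and 2.06 above the median of the 65 reference miRNAs. With every spot signal under a floor of 621, the highest of the limits of the arrays, raised to it, the fitted value was 0.875. It was 1.57 when scaled to all mouse probes, 1.85 unscaled, 1.49 after quantile normalization and 0.457 in the deposited table. In slide row 1, where the mTEC and cTEC signals were both measured, mTEC replicate 1 exceeded cTEC replicate 1 by 1.75 on the log2 scale, a difference between 1 array of each kind. With the same floor, the fitted difference of mTECs from cTECs was 0.87 (SE 0.11), and it stayed above 0, at 1.34 to 2.66, under the other 3 scalings. cTECs against CD45+ cells had no settled sign for miR-99a. The fitted value was 0.00163, where all 5 averaged signals of these groups lay under 621 but the floor acted on single spots. The fitted difference was -0.81 to 0.15 under the other scalings and -0.26 under the normexp background correction. With the median and the lowest of the arrays' limits as the floor it was 0.72 and 0.63. In slide row 1, where these signals were well above background, cTEC replicate 1 exceeded the CD45+ arrays by 0.81.

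**Figure D1:**
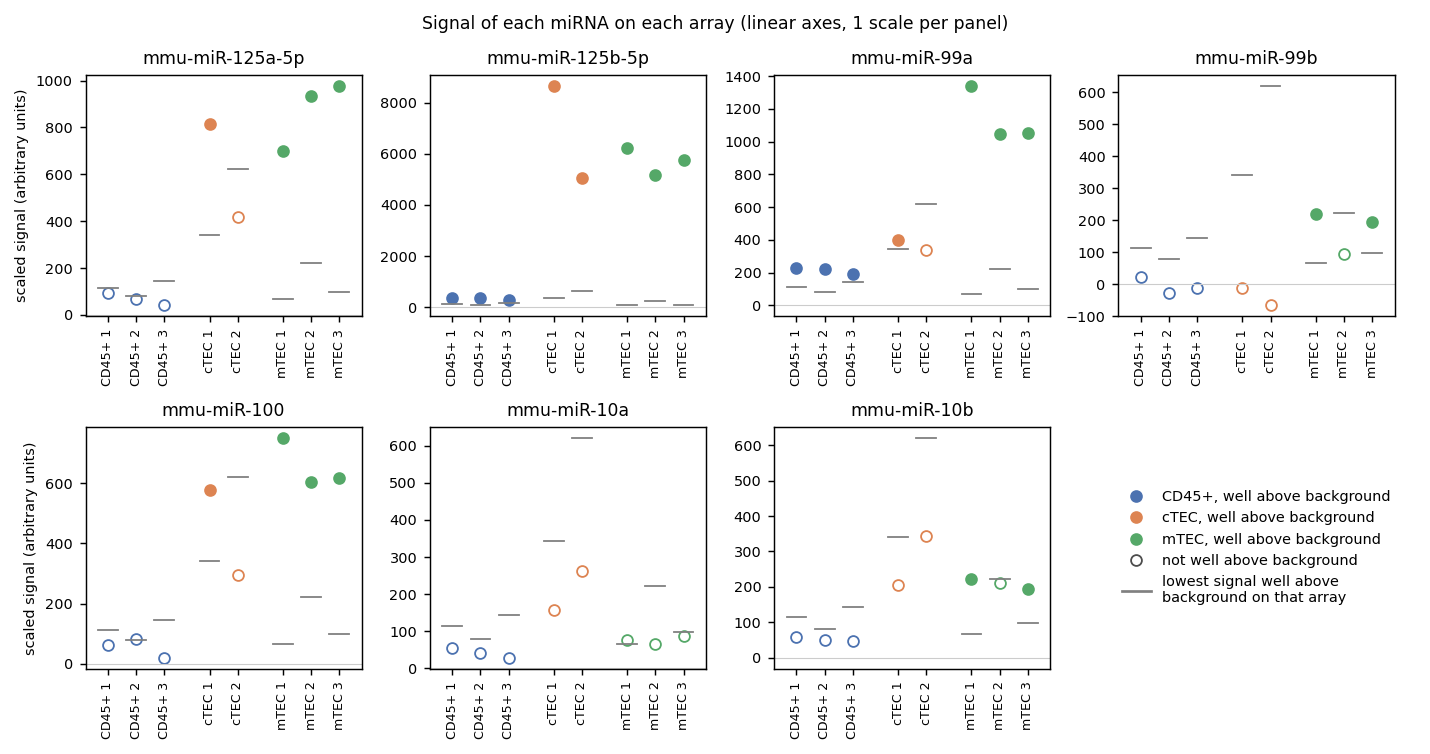
Scaled signal (arbitrary units, linear axis starting from each panel's own range) of each of the 7 miRNAs on the 3 CD45+, 2 cTEC and 3 mTEC arrays. Filled points were well above background, open points were not, and gray bars give the dimmest signal well above background on that array. miR-125b-5p is high on all 5 epithelial arrays (5048 to 8675), whereas miR-99a is high on the 3 mTEC arrays alone (1047 to 1343).

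The chromosome 16 neighbors were then compared within each array, where the scaling between arrays cancels and the question is whether the difference between the probes changed from cell type to cell type. The log2 signal of miR-125b-5p minus that of miR-99a was 0.70, 0.68 and 0.54 in CD45+ cells, against 2.21, 2.30 and 2.45 in mTECs. It was 4.44 on cTEC replicate 1 and at least 3.02 on cTEC replicate 2, where miR-99a was not well above background. The 3 cell types did not overlap in this difference, which was lowest in CD45+ cells (mean 0.64 ± 0.08), intermediate in mTECs (2.32 ± 0.12) and highest in cTECs. It rests on scarce cTEC data, a measured value and a bound.

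The let-7c hairpin Mirlet7c-1 lies between the miR-99a and miR-125b hairpins of chromosome 16, although mature let-7c is also made from Mirlet7c-2 on chromosome 15. let-7c minus miR-99a was 3.91, 4.13 and 3.96 in CD45+ cells, 2.80, 2.97 and 2.81 on the mTEC arrays, 4.45 on cTEC replicate 1 and at least 3.33 on cTEC replicate 2. let-7c minus miR-125b-5p was 3.21 to 3.46 on the CD45+ arrays, 0.01 to 0.30 on the cTEC arrays and 0.36 to 0.67 on the mTEC arrays. Thus miR-125b-5p gained on let-7c in both kinds of epithelium, while miR-99a gained on let-7c on the mTEC arrays. In the deposited quantile table, the mTEC minus CD45+ change of let-7c minus miR-99a had the other sign, 0.43 instead of -1.14.

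mmu-miR-100, which differs from miR-99a by 1 base and shares its seed, comes from the chromosome 9 cluster. Its signal was 61.2, 81.7 and 20.1 in the CD45+ samples, 579 and 294 in the cTEC samples and 751, 606 and 617 in the mTEC samples. All spots were well above background on the mTEC arrays and on cTEC replicate 1, none was on cTEC replicate 2, and 1 spot was on the CD45+ arrays together. Against the limits of the CD45+ arrays, miR-100 was at least 5.94-fold higher in mTECs under the scaling to the 65 reference miRNAs, which sets the size of this bound. The fitted log2 difference was 0.515 to 1.87 under the other 3 scalings and 0.309 in the deposited table. No bound was set for cTECs, since 1 of the 2 arrays measured it.

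The near-identical probes of miR-99a and miR-100 were compared in the same way. miR-99a minus miR-100 was 0.84, 0.79 and 0.78 on the mTEC arrays but -0.54 on cTEC replicate 1, and at least 1.01, 1.46 and 0.42 on the CD45+ arrays. The level of this difference has no meaning between probes, and its change between mTECs and cTECs rests on 1 cTEC array. miR-125b-5p minus miR-100, the outer members of the chromosome 9 cluster, was 3.05 to 3.23 on the mTEC arrays and 3.90 on cTEC replicate 1, with lower bounds of 0.97 to 2.14 on the CD45+ arrays and 3.02 on cTEC replicate 2. The change from cTEC replicate 1 to the mTEC mean was -0.78 for this pair, against -2.12 for miR-125b-5p minus miR-99a.

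mmu-miR-125a-5p, the paralog of miR-125b-5p from chromosome 17, was not well above background on any CD45+ array, at 95.3, 67.1 and 40.7. It reached 814 on cTEC replicate 1, with all spots well above background, and 418 on cTEC replicate 2, with none. On the mTEC arrays it was 699, 933 and 979, with all spots well above background. The measured epithelial signals all exceeded the CD45+ signals, and the measured cTEC value lay within the mTEC range.

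Bounded by the limits of the CD45+ arrays, miR-125a-5p was at least 7.85-fold higher in mTECs, a size that likewise holds for this scaling. The fitted log2 difference was 1.07 to 2.27 under the other 3 scalings, 1.73 under normexp and 0.387 in the deposited table. For cTECs, with 1 of 2 arrays measured, no bound was set. miR-125b-5p minus miR-125a-5p was 3.16, 2.47 and 2.56 on the mTEC arrays and 3.41 on cTEC replicate 1. The change from cTEC replicate 1 to the mTEC mean was -0.69, beside an SD of 0.37 among the mTEC arrays. Lower bounds were 0.97 to 2.17 on the CD45+ arrays and 3.02 on cTEC replicate 2, the latter above 2 of the 3 mTEC values.

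mmu-miR-99b, which shares the chromosome 17 cluster with miR-125a-5p, was measured on 2 arrays. Its signal was 21.8, -28.4 and -12.4 in CD45+ cells, and cTECs gave -11.5 and -66.4, where a negative value is a spot dimmer than the estimated background. On the mTEC arrays it was 219, 94.7 and 194, with all 5 spots well above background on replicates 1 and 3 and none on replicate 2. All 3 mTEC values exceeded all others. No bound on a fold was set for miR-99b, as 2 of 3 mTEC arrays measured it, and the limits of the cTEC arrays lay above the mTEC signal.

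For the chromosome 17 neighbors, miR-125a-5p minus miR-99b was 1.67 and 2.34 on mTEC replicates 1 and 3, at least 2.07 on mTEC replicate 2 and at least 1.25 on cTEC replicate 1. This did not show whether the pair changed between cTECs and mTECs, since the bound lies below the mTEC values.

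The miR-10 pair from the Hox clusters was close to the detection limit throughout. mmu-miR-10b gave 57.7, 49.8 and 47.2 in the CD45+ samples, 206 and 344 in the cTEC samples and 222, 212 and 195 in the mTEC samples. It was well above background on mTEC replicates 1 and 3 alone, and the mTEC values all lay above the CD45+ values. mmu-miR-10a gave 53.9, 41.2 and 28.9 in the CD45+ samples, 157 and 262 in the cTEC samples and 76.7, 65.0 and 87.5 in the mTEC samples. No array had more than 2 of its 5 spots well above background, so it was left out of the fits, and the higher cTEC numbers are below the limits of those arrays.

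**Figure D2:**
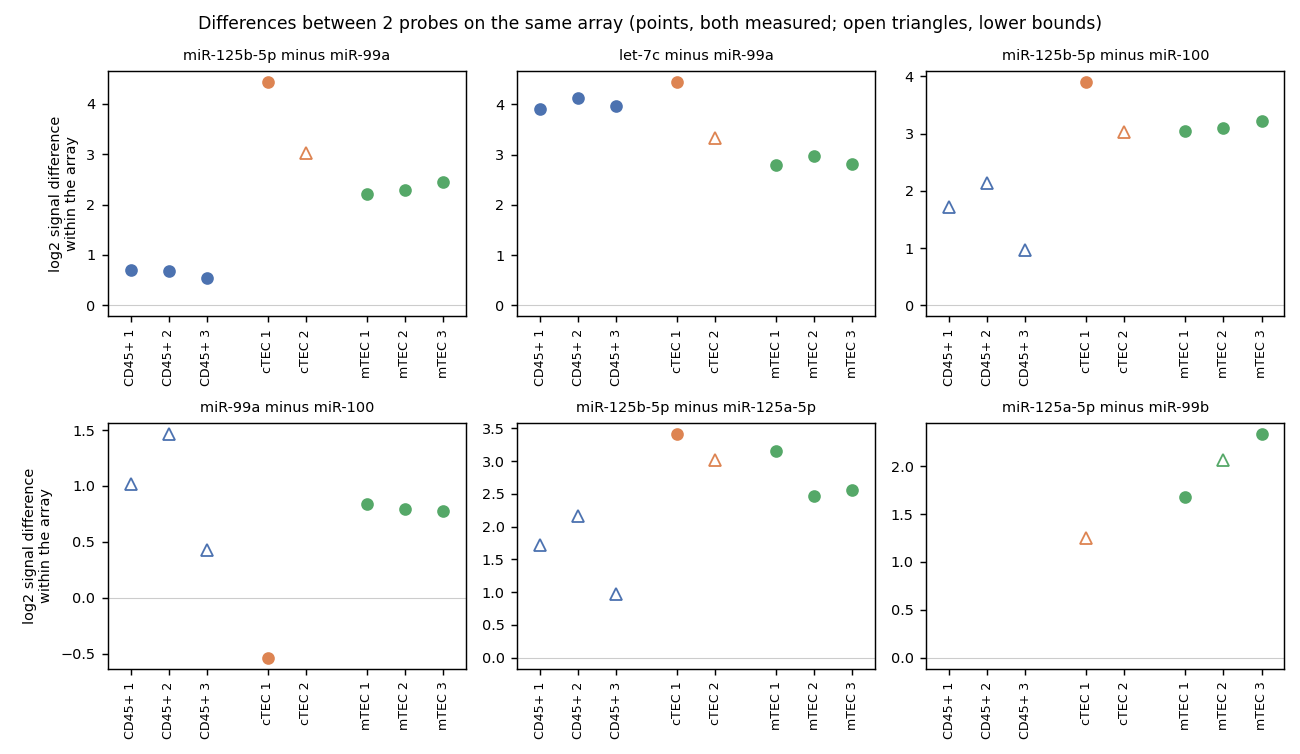
Log2 signal of the first-named miRNA minus that of the second on the same array, for 6 pairs over the CD45+, cTEC and mTEC arrays; filled points are arrays with both probes well above background and open triangles are lower bounds. The 3 cell types separate for miR-125b-5p minus miR-99a (0.54 to 0.70, at least 3.02, and 2.21 to 2.45), and miR-99a minus miR-100 is lower on cTEC replicate 1 (-0.54) than on the mTEC arrays (0.78 to 0.84).

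Both hairpin arms can yield a mature miRNA, and hairpins of miR-99a and miR-125b are shown because their 5′ arms were measured in all 3 cell types while probes for their 3′ arms were not. They are written 5′ to 3′ from RefSeq (GRCm38.p6, plus strand), with both mature arms in capitals.

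Mir99a: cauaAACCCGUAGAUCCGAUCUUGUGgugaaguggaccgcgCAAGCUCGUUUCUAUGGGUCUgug
Mir125b-1: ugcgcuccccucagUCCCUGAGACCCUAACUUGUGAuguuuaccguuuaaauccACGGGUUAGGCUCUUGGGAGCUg

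The 8 probes for the opposite arms of the members' hairpins were well above background on none of the arrays, and 4 of their 315 spots passed. Their highest signals were 57.8 on the CD45+ arrays, 114 on the mTEC arrays and 183 on cTEC replicate 1. On cTEC replicate 2 they reached 507, which shows how bright scaled background could be there.

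**Figure D3:**
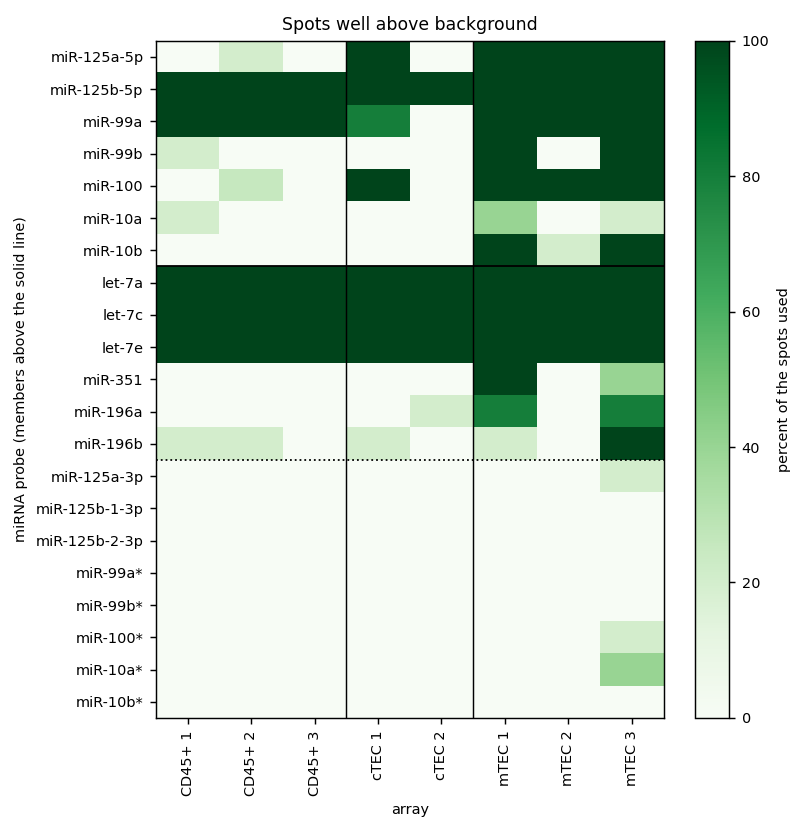
Percent of the spots of each probe counted well above background, for 8 arrays, with the 7 members above the solid line, then the let-7 neighbors, miR-351 and miR-196, and the opposite arms below the dotted line. miR-125b-5p and the 3 let-7 probes are at 100% on all arrays, and no opposite arm passes a majority of its spots on any array.

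In the fit across 309 miRNAs with limma, 2 of the 6 tested members, miR-125b-5p and miR-99a, were called higher in mTECs than in CD45+ cells at an adjusted p under 0.05, where 9.06% of all tested miRNAs were called higher. In cTECs against CD45+ cells 1 member, miR-125b-5p, was called higher (background 10.7%), and in mTECs against cTECs 1 member, miR-99a, was called higher (background 16.2%). The miR-125b-5p call in cTECs was lost unscaled (1.98), and the miR-99a call against cTECs when scaled to all mouse probes (1.95). No member was called lower in the main fit. The log2 fold changes of mTECs from CD45+ cells were 3.20 (SE 0.20) for miR-125b-5p, 0.87 (SE 0.10) for miR-99a, 0.47 (SE 0.16) for miR-125a-5p and 0.12 (SE 0.06) for miR-100, and miR-99b and miR-10b were at the floor of 621 on all arrays. These fitted values understate the differences of dim miRNAs, because spot signals under 621 were raised to it.

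The floor of 621 came from cTEC replicate 2. With the floor from the 6 CD45+ and mTEC arrays (223), a choice made after seeing the data, 4 of the 6 tested members were called higher in mTECs than in CD45+ cells, beside 15.5% of all tested miRNAs. The fitted differences were then 4.09 (SE 0.22) for miR-125b-5p, 2.29 (SE 0.13) for miR-99a, 1.95 (SE 0.26) for miR-125a-5p and 1.55 (SE 0.24) for miR-100, and those of miR-99b and miR-10b were 0.01 and 0.05. As the members were picked with these results in view, nothing is read from the counts.

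**Figure D4:**
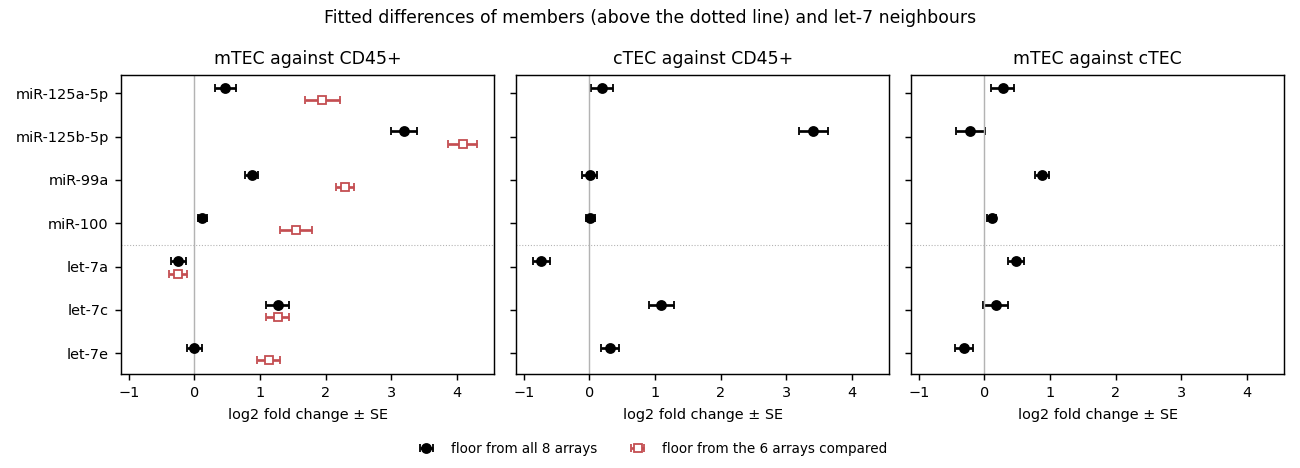
Log2 fold changes with standard errors from limma for the 4 members not at the floor on all arrays and the 3 let-7 neighbors, in mTECs against CD45+ cells (3 and 3 arrays), cTECs against CD45+ cells (2 and 3) and mTECs against cTECs (3 and 2). Filled circles use the floor of 621 from all 8 arrays and open squares, in the left panel, that of 223 from the 6 arrays compared, where miR-99a moves from 0.87 to 2.29.

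Relatives that the selection did not use were 16 probes, of which let-7a, let-7c, let-7e and miR-196a were well above background on 2 or more arrays and were tested. The relatives were listed by sequence and position with earlier results of these arrays known, so their p-values are no independent evidence. In mTECs against CD45+ cells 1 of the 4, let-7c, was called, where 23.9% of all tested miRNAs were called in either direction. In cTECs against CD45+ cells let-7c and let-7a were called (background 30.7%), and in mTECs against cTECs let-7a was called (background 22.7%).

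let-7c, a member of the let-7 family of differentiation-linked miRNAs, was 3460, 3950 and 3010 in the CD45+ samples, 8721 and 6235 in the cTEC samples and 9356, 8212 and 7429 in the mTEC samples. All epithelial values lay above all CD45+ values. The limma log2 fold change was 1.27 (SE 0.17, adjusted p = 0.00188; range over the alternatives 0.000208 to 0.704) in mTECs and 1.10 (SE 0.19, adjusted p = 0.00509; range 0.000232 to 0.541) in cTECs against CD45+ cells, higher in 3 of 3 and 2 of 2 arrays, but the cTEC value equaled the median of the reference miRNAs (1.10) and turned to -0.78 when scaled to all mouse probes and to -1.23 unscaled. The mTEC value fell to 0.42 when scaled to all mouse probes and to 0.70 unscaled, and neither was called.

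let-7a, whose Mirlet7a-2 hairpin lies between Mir100 and Mir125b-1 and which is also made from other loci, did not rise with miR-125b-5p. It was 6786, 7300 and 5776 in the CD45+ samples, 4264 and 3690 in the cTEC samples and 5843, 5776 and 5060 in the mTEC samples. The limma log2 fold change in cTECs against CD45+ cells was -0.73 (SE 0.12, adjusted p = 0.00478; range over the alternatives 0.00102 to 0.0882), with both cTEC arrays below all CD45+ arrays. The fall was not called under the normexp background correction (-0.395), was -0.415 after quantile normalization, and was -2.61 when scaled to all mouse probes and -3.06 unscaled. In mTECs against cTECs let-7a was 0.48 higher (SE 0.12, adjusted p = 0.0379; range 0.00739 to 0.540), a call that was lost without any 1 of several arrays, CD45+ replicate 1, cTEC replicate 2, mTEC replicate 1 or mTEC replicate 2, with values of 0.382 to 0.485. The call was also lost after quantile normalization (0.163), under normexp (0.146), in the deposited table (0.242), when scaled to all mouse probes (1.52) and with the median and lowest floors (0.485).

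let-7c minus let-7a, a difference between probes with 1 mismatch (A19G), was -0.97 to -0.89 on the CD45+ arrays, 0.76 to 1.03 on the cTEC arrays and 0.51 to 0.68 on the mTEC arrays. The difference was larger on all epithelial arrays than on all CD45+ arrays, whatever the scaling between arrays, and cross-hybridization between these probes was not tested.

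let-7e, from between Mir99b and Mir125a, was 253, 232 and 226 in the CD45+ samples, 599 and 922 in the cTEC samples and 480, 576 and 559 in the mTEC samples, well above background on all 8. All of these averaged signals but that of cTEC replicate 2 lie under the floor of 621, which acted on single spots. With this floor the limma difference was 0.00 in mTECs (adjusted p = 1.00) and 0.31 (SE 0.13, adjusted p = 0.176) in cTECs against CD45+ cells. In cTECs it was 0.0595 without cTEC replicate 2. With the floor from the 6 arrays compared, let-7e was 1.13 higher on the log2 scale in mTECs than in CD45+ cells (SE 0.18, adjusted p = 0.00171; range over the alternatives 0.00171 to 1.00), higher on 3 of 3 arrays. This difference was 0.625 unscaled, 0.349 when scaled to all mouse probes, 0.345 under normexp, 0.26 after quantile normalization and 0.09 in the deposited table, and limma called none of these. In cTECs against CD45+ cells the measured signals differed by 1.65 on the log2 scale (3.14-fold), and limma called let-7e higher with the median floor (1.65, adjusted p = 0.000452), after quantile normalization (1.60, adjusted p = 0.00192) and under normexp (1.09, adjusted p = 0.000722). But the difference was -0.19 when scaled to all mouse probes, -0.65 unscaled and 0.00979 in the deposited table, and limma called none of these. Over the alternatives that kept both cTEC arrays, the limma adjusted p ranged from 0.000452 to 0.946. The median difference of the reference miRNAs was 1.10.

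miR-351, which carries the miR-125 seed on an X chromosome hairpin, gave 123, 114 and 107 on the mTEC arrays and from -128 to 11.9 on the others. It was well above background on mTEC replicate 1 alone. Of the other Hox-cluster miRNAs probed, miR-196a was well above background on mTEC replicates 1 and 3 at 108 and 143, miR-196b on mTEC replicate 3 at 153, and both strands of miR-615 on none.

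The miRNAs with the most similar profile over the 8 arrays, by Pearson's r on the floored log2 signals among 225 candidates, are given as a description. For miR-125b-5p these were let-7b (0.98), let-7c (0.96) and miR-1959 (0.94). For miR-99a they were miR-185 (0.997), miR-141 (0.99) and miR-429 (0.98), for miR-125a-5p miR-205 (0.88), miR-149 (0.88) and miR-183 (0.85), and for miR-100 miR-96 (0.92), miR-449a (0.89) and miR-99a (0.81). All pairs share the 8 arrays and their scaling, and at the floor of 621 no more than 5 arrays gave these members a value above it.

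Cell type markers were measured beside these results, because bulk RNA cannot tell fewer cells of a type from less RNA per cell. The 7 epithelial miRNAs (miR-200 family, miR-205 and miR-203) summed to 623 to 704 on the CD45+ arrays, 4442 to 8620 on the cTEC arrays and 36799 to 39058 on the mTEC arrays, with 3 of 7 well above background on both cTEC arrays and all 7 on every mTEC array. The 5 blood cell miRNAs summed to 20943 to 25073 in CD45+ cells, 3310 to 4758 in cTECs and 1908 to 2436 in mTECs. On the cTEC arrays, whose limits were 342 and 621, miR-150 and miR-181a were well above background on both. miR-142-3p, miR-142-5p and miR-223 were so on neither. Of the 5, 3 were well above background on every mTEC array, and each of the 5 on at least 1 mTEC array.

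The 7 mesenchymal and endothelial miRNAs, a list of cell types in which miR-125b and miR-99/100 are also known to be abundant, summed to 477 to 596 on the CD45+ arrays, 3759 to 7872 on the cTEC arrays and 6817 to 7157 on the mTEC arrays. Their sum thus moved with miR-125b-5p, with 1 of 7 well above background on every CD45+ array, 2 of 7 on both cTEC arrays and 3 of 7 on every mTEC array. miR-126-5p, miR-199a-3p and miR-199a-5p were well above background on none of the 8 arrays, and miR-214 on none of the CD45+ and cTEC arrays. The 1 measured on every CD45+ array was miR-126-3p. miR-143 and miR-145 were well above background on no CD45+ array. Like miR-126-3p, they were so on at least 1 cTEC array and at least 1 mTEC array. Both epithelial groups were sorted as CD45-, EpCAM+ and MHC II+. The part of mesenchymal and endothelial cells in the signals of the 7 family members was not tested. Of the 2 red blood cell miRNAs, miR-451 was well above background on no array and miR-144 on none of the CD45+ and cTEC arrays.

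The authors' quantile-normalized log2 table gave smaller differences for the chromosome 16 neighbors. miR-125b-5p had 11.55 ± 0.03 in CD45+ cells, 13.15 ± 0.31 in cTECs and 13.04 ± 0.08 in mTECs. miR-99a had 11.49 ± 0.05, 11.45 ± 0.13 and 11.94 ± 0.10, so that CD45+ cells and cTECs lay within their spread of each other. In this table miR-10a, not well above background on any array, stood at 11.36 in all groups.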

How the data were processed

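Total RNA from sorted CD45+ cells (3 arrays), cTECs (2) and mTECs (3) was labeled with Cy3 and hybridized to custom multi-species miRNA arrays with 5 spots per probe. Per sample, the authors deposited a scanner file whose values are intensities (Feature Extraction 10.7.3.1 per the file headers, with a background-subtracted processed signal), and a table of quantile-normalized log2 values of the mouse probes, which ranks as the median spot signal without background subtraction. Its columns of fold changes, ratios, adjusted p-values and log odds were not used, and no build or normalization settings beyond limma and quantile are given in the sources used here.

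Control spots and outlier spots were dropped, and signals were divided by each array's 75th percentile over the 65 mouse miRNAs detected well above background throughout. Spots were averaged by probe for the signals printed. For the fits on the log2 scale, spot signals under 621 were raised to it before averaging by probe. This floor is the highest of the arrays' lowest signals well above background. limma 3.58.1 (R 4.3.3) fitted 1 model of the 3 group means to the 309 miRNAs that stood well above background on 2 or more arrays, with Benjamini-Hochberg adjustment, and was tested on simulated data. Bounds, given where all arrays of the brighter group measured a miRNA, set its mean against the limits of the dimmer group's arrays. The number of arrays limits the precision. The limma p-values set a difference against the spread between arrays, estimated for each miRNA over the 3 groups together.

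The members, the relatives (opposite arms, cluster neighbors, seed and Hox-cluster relatives, named where well above background on 2 or more arrays) and the marker lists were chosen with earlier results of these data known. Alternatives covered scaling, background correction, floor, filter, spot average, groups fitted, replicate number, slide row and each array left out. Sequences and positions are from RefSeq (GRCm38.p6), matched by the probe's complement.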

Additional observations from a re-analysis of the deposited data

How the results depend on the processing

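The cTEC arrays limited these results, since their dimmest measurable signals were 342 and 621, and with 2 arrays a miRNA such as miR-99a was measured on 1. Counts of members called depended on the floor, the scaling and the background correction. The share of all tested miRNAs called higher in mTECs than in CD45+ cells moved too. It was 9.06% in the main fit and 15.5% with the floor from the arrays compared. Shares under the other alternatives, and those for the relatives under any alternative, are not given here. The counts below therefore cannot be set against a background and are a description. In mTECs against CD45+ cells the 2 members called became 4 unscaled, in the deposited table, with the median floor, with the floor from the arrays compared and without cTEC replicate 2 with the floor of the other 7, and 6 under normexp and with the lowest floor. When scaled to all mouse probes the count was 3, with miR-125a-5p added. In cTECs against CD45+ cells the 1 became 0 unscaled, and 5 and 4 with the median and lowest floors. These 5 and 4 include miR-10b (0.993 and 1.85), which was not well above background on either cTEC array. In mTECs against cTECs the 1 became 0 when scaled to all probes, and 2 unscaled, under normexp and with the lowest floor. Without cTEC replicate 2, with either floor, the difference of miR-125b-5p was -0.604 instead of -0.213. That is a difference from the 1 cTEC array left. Leaving out 1 CD45+ or mTEC array at a time gave 2 to 3, 1 to 1 and 1 to 1 members. For the comparisons with cTECs, counts of members or relatives without 1 cTEC array are not given, since 1 array of that group is then left.

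Of the relatives, 1 called in mTECs against CD45+ cells became 0 when scaled to all probes or unscaled, and 2 in the deposited table and with each of the lower floors. In cTECs against CD45+ cells the 2 became 1 when scaled to all probes or unscaled, and 4 with the median and lowest floors. These 4 include miR-196a (1.34 and 2.04), which was not well above background on either cTEC array. In mTECs against cTECs the 1 became 0 when scaled to all probes, in the deposited table, with the median floor, with dim probes kept and with the 2 groups fitted alone. There the count stayed at 1 with another relative in place of let-7a after quantile normalization (let-7e, -1.34), under normexp (let-7e, -0.746) and with the lowest floor (miR-196a, -1.38). The miR-196a value is set against cTEC signals that were not well above background, so it gives no measured difference. Under normexp let-7e also took the place of let-7a in cTECs against CD45+ cells. Leaving out 1 CD45+ or mTEC array at a time gave 1 to 1, 2 to 2 and 0 to 1 relatives. let-7c in cTECs against CD45+ cells turned to -0.779 when scaled to all probes and -1.23 unscaled. In the deposited table the within-array changes of miR-125b-5p minus miR-99a were 1.04, 1.76 and -0.722 instead of 1.68, 3.80 and -2.12 (mTEC minus CD45+, cTEC minus CD45+, mTEC minus cTEC), that of let-7c minus miR-99a was 0.428 instead of -1.14, and for mTEC minus cTEC that of miR-125b-5p minus miR-100 was -0.254 and of miR-125b-5p minus miR-125a-5p -0.287. The cause was not tested.

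Replicate numbers are shared between groups, but deviations of same-numbered arrays correlated at -0.23 to 0.28, so the numbers were not taken to pair the arrays. With the replicate block 2, 1 and 1 members were called and miR-125b-5p differed by 3.20, 3.42 and -0.22, and no call of a member or relative changed. The floors from the arrays compared and without cTEC replicate 2 were chosen after seeing the data.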
